A study of Mus musculus with 6 samples.

Results

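Alx1, Alx4, Prrx1, Prrx2 and Shox2 are 5 homeobox genes of the developing face and limb, and the H3K4me1 peaks around them were described in mouse whisker pads at embryonic day 12 (E12). They were chosen by name, with earlier results of these data known, and are 5 of the 21755 protein-coding genes of the GENCODE annotation on GRCm38. A peak was assigned to a gene when it overlapped the gene body or the 5 kb on either side, which is called a peak at the gene. A distal peak lay outside these limits, up to 300 kb away, and had that gene's start site as its nearest protein-coding start site. By this rule 63 peaks were assigned, of which 23 were among the 16788 peaks of replicate 1, 15 among the 12969 of replicate 2 and 25 among the 13998 of replicate 3.

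H3K4me1, histone H3 with 1 methyl group on lysine 4, was profiled with CUT&Tag, a method that tethers a transposase to an antibody on the mark and sequences the fragments it cuts out. All samples were untreated wild-type pads of strain B6/J2, dissociated to single cells, 3 of them profiled with anti-H3K4me1 and 3 with IgG. Values from the IgG samples are not analysed here, and nothing below is set against a control background. A pad holds mesenchyme, surface ectoderm and other cells together, so a peak cannot be given to a cell type, and more marked cells cannot be told apart from more mark per cell. The labels number the pads 1 to 3 and do not say whether they came from separate embryos, so the spread between replicates may be partly technical. For 4 of the 6 samples, H3K4me1 replicates 2 and 3 among them, the source name in the labels is adult kidney, whereas every title names the whisker pad. The titles were followed, and marker genes were looked up in each list. Of 14 facial mesenchyme markers, 14, 13 and 13 had a peak at the gene in replicates 1, 2 and 3, and 12 had one in all 3. For 12 surface ectoderm markers the counts were 8, 8 and 4, with 4 in all 3, and for 14 adult kidney markers 4, 4 and 2, with 2 in all 3. Over all protein-coding genes, 24.9, 22.6 and 19.6% had a peak at the gene in replicates 1, 2 and 3, and 15.5% in all 3. The kidney count of 2 of 14 in all 3 (14.3%) is close to that of all genes. It also requires a peak in replicate 1, so it cannot show what replicate 2 or 3 holds alone. For those 2 lists the kidney counts of 4 and 2 of 14 stand beside 22.6 and 19.6% of all genes, and 14 markers are few.

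The 5 genes encode transcription factors with a homeodomain of the paired-related kind, which binds TAAT-containing DNA. Alx1 and Alx4 belong to the aristaless-like group and act in the neural crest mesenchyme of the face and, for Alx4, also in the limb bud and skull vault. Prrx1 and Prrx2 are a closely related pair expressed in mesenchyme of face and limb, and mice without both have more severe jaw and limb defects than mice without Prrx1 alone. Shox2 acts in the proximal limb, the palate and the sinoatrial node of the heart. In general, H3K4me1 marks enhancers, both active and poised, is found around active genes, and tends to be depleted directly at active start sites.

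For each gene a stretch of sequence around a place of highest pileup is printed below, taken from the highest-ranking region with a peak in all replicates in which 2 replicates peaked within 50 bp of each other. For Alx1 this is not its highest-ranking recurring region, which lies downstream and in which the closest places were 58 bp apart. Each is from GRCm38 on the plus strand, and capitals mark the stretch of highest pileup deposited for the 2 replicates in which it lay closest together. A second place in Prrx2, shown last, is one where the 3 replicates peaked within 4 bp of each other.
Alx1 chr10:103034958-103035158: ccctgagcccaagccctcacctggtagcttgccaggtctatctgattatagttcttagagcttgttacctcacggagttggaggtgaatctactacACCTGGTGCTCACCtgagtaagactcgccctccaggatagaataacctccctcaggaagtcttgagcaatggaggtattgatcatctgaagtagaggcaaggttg
Alx4 chr2:93648643-93648843: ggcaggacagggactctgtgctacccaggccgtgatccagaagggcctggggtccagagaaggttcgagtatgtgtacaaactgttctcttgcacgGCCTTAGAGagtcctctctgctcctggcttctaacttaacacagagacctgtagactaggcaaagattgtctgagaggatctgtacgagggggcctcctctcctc
Prrx1 chr1:163304063-163304263: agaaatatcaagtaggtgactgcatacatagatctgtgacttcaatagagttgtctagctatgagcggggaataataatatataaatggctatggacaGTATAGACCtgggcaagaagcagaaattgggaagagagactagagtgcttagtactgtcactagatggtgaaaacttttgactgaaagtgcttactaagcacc
Prrx2 chr2:30850283-30850483: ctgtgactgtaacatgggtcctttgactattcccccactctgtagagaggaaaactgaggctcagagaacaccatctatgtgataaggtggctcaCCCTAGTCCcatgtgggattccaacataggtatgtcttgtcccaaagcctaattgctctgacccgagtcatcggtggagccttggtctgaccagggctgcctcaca
Shox2 chr3:66970662-66970862: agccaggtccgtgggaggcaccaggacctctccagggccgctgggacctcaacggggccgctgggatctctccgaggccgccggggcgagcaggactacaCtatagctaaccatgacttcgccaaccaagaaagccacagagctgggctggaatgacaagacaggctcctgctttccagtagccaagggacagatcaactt
Prrx2 chr2:30875232-30875432: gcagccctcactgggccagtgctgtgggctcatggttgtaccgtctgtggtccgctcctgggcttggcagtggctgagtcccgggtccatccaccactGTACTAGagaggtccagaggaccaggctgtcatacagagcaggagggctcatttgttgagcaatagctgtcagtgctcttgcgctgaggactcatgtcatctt
The Alx4, Prrx1 and both Prrx2 windows lie in introns of those genes. The Alx1 window is intergenic, at −4.84 kb from the 5′ start with negative distances upstream, and the Shox2 window lies just past the 3′ end, 11.0 kb from the start.

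All 5 genes had a peak at the gene in all 3 replicates, whereas 15.5% of all protein-coding genes did, and 12.8% of those between 5 and 100 kb long, the range that holds the 5 genes. In replicates 1, 2 and 3 taken singly, 24.9, 22.6 and 19.6% of all genes had one. Of the 63 assigned peaks, 42 were at the genes (15, 11 and 16 in replicates 1, 2 and 3) and 21 were distal (8, 4 and 9). All 5 genes also had at least 2 assigned peaks in each replicate, against 9.52% of all genes, and Alx1, Alx4, Prrx1 and Prrx2 had at least 3, against 6.04%. The assigned peaks covered 156, 160 and 179 kb in replicates 1, 2 and 3 (mean 165 ± 12.3 kb, SD, n = 3). They made up 0.137, 0.116 and 0.179% of the peaks of each list and held 0.331, 0.364 and 0.3504% of its signal.

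Peak strength was compared as the percentile of total signal, the share of a replicate's list with a total signal no higher than that of the peak, because total signal was not scaled to depth. The median percentile of the assigned peaks was 66.3, 74.5 and 83.7 in replicates 1, 2 and 3 (mean 74.8 ± 8.71, SD, n = 3). The peaks ran from percentile 2.53 to 99.9, and 9, 2 and 10 of them in replicates 1, 2 and 3 lay below the 50th. Total signal is a sum over bases, so long peaks rank high, as the plot of percentile against length shows. The longest and highest-ranking peaks belonged to Alx4 and Prrx2, although both Alx4 and Prrx1 had wide as well as short peaks.

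**Figure D1:**
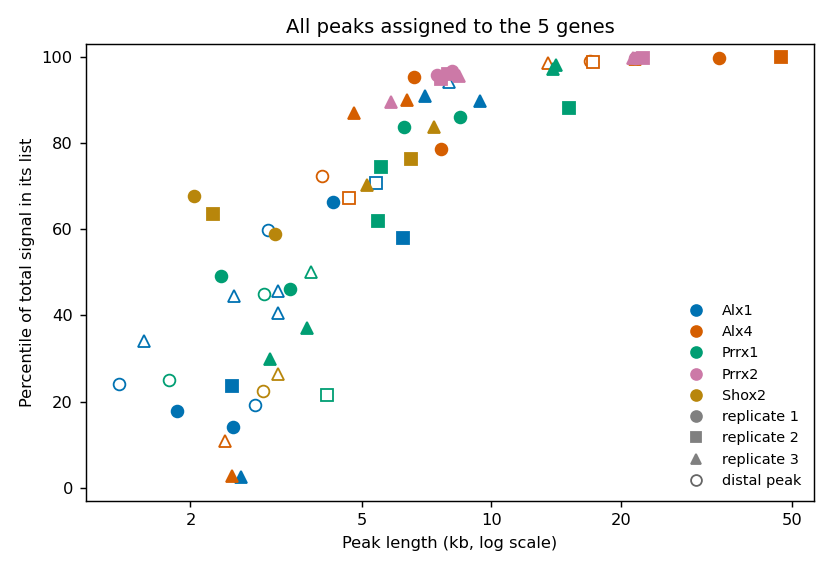
Length (kb, log scale) and percentile of total signal of all 63 peaks assigned to the 5 genes, with colour for the gene, shape for the replicate and open symbols for distal peaks. The peaks of 10 kb or longer, which belong to Alx4, Prrx2 and Prrx1, lie at percentile 88.2 or above, and the peaks under the 50th percentile are all shorter than 5 kb.

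A peak of 10 kb or longer stood at Alx4 and Prrx2 in all 3 replicates, so 2 of the 5 genes had one, compared with 1.09% of all protein-coding genes and 0.717% of those between 5 and 100 kb long. The 10 kb limit, like the 5 genes, was chosen with earlier results of these data known, so these shares are a description only. Prrx1 had one in replicates 2 and 3 only. Taken singly, replicates 1, 2 and 3 gave such a peak at 2.01, 2.67 and 1.67% of all genes. The longest peak at Alx1 and Shox2 reached 9.44 and 7.38 kb, both in replicate 3.

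Prrx2 (ENSMUSG00000039476.13) spans 46.3 kb on the plus strand of chromosome 2, at chr2:30834972-30881251. The nearest other starts are those of Asb6, 4.64 kb from its 5′ start, and Ptges, 58.2 kb from its second annotated start. It had 3 peaks in every replicate, the same count in each, and no distal peak. The first covered the 5′ start and ran from −3.61 to 3.88 kb in replicate 1, −3.56 to 4.08 kb in replicate 2 and −2.71 to 3.14 kb in replicate 3. The second was intronic and much the strongest, from 10.6 to 32.2 kb, 10.7 to 33.2 kb and 10.9 to 32.2 kb. The third ran from 34.1 to 42.2 kb, 34.1 to 42.0 kb and 34.2 to 42.6 kb, so the edges of all 3 peaks moved by no more than about 1 kb between pads.

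The central Prrx2 peak ranked 37 of 16788 by total signal in replicate 1, 31 of 12969 in replicate 2 and 52 of 13998 in replicate 3, or percentiles of 99.8, 99.8 and 99.6. The start peak lay at 95.7, 95.0 and 89.5, and the downstream peak at 96.7, 96.1 and 95.5. Together the peaks covered 66.1, 67.7 and 63.3% of the gene body with its flanks, a mean of 65.7 ± 2.23% (SD, n = 3), and 60 of the 21755 genes, Prrx2 included, had a mean at least as high. Covered length, at 37.2, 38.1 and 35.7 kb, varied least between replicates of all 5 genes. In the start and downstream peaks the place of highest pileup lay within 4 bp in all 3 replicates. In the central peak, replicates 1 and 3 peaked 2 bp apart at 15.4 kb, and replicate 2 at 23.5 kb.

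Alx4 (ENSMUSG00000040310.12), 39.0 kb long on the plus strand at chr2:93642384-93681339, carried the longest peaks of the 5 genes. In replicate 2 a single peak of 47.2 kb covered the whole gene, from −4.87 to 42.4 kb. Replicate 1 had the same domain in 3 pieces, the main one of 33.9 kb from −9.08 to 24.8 kb, followed by peaks from 25.6 to 32.2 kb and from 35.2 to 42.9 kb. Replicate 3 had it in 4 pieces, from −4.46 to 0.34 kb, 1.71 to 23.3 kb, 26.2 to 32.6 kb and 36.2 to 38.7 kb. The longest piece ranked 36 of 16788, 18 of 12969 and 72 of 13998 in replicates 1, 2 and 3, or percentiles of 99.8, 99.9 and 99.5. It held 0.0801, 0.111 and 0.0474% of the signal of each list, so the number of pieces and the share in the longest one both differed between replicates.

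Peaks covered 89.9, 96.5 and 72.1% of the Alx4 body with its flanks, a mean of 86.2 ± 12.6% (SD, n = 3), and 10 of the 21755 genes, Alx4 included, had a mean at least as high. Upstream, a second wide peak of 17.0, 17.2 and 13.6 kb lay between −33.5 and −16.3 kb in all replicates, at percentiles of 99.1, 98.8 and 98.6. Its places of highest pileup fell within 404 bp of each other. Between this peak and the gene a weaker peak, at −13.5 to −9.44 kb in replicate 1, reached 72.3, 67.2 and 10.9, which is far lower in replicate 3. The stretch in which the Alx4 start is the nearest protein-coding start is 71.97 kb long, between Gm10803 and Ext2, and was covered to 86.2, 80.3 and 65.7%. The last piece at the 3′ end in replicates 1 and 3 was nearer to a start of Ext2 and was counted for Alx4 because it overlapped the gene. In the longest piece the place of highest pileup lay at 6.36 kb in replicates 1 and 3. In replicate 2 it lay at 29.6 kb, where an Alx4 intron overlaps an intron of Ext2.

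**Figure D2:**
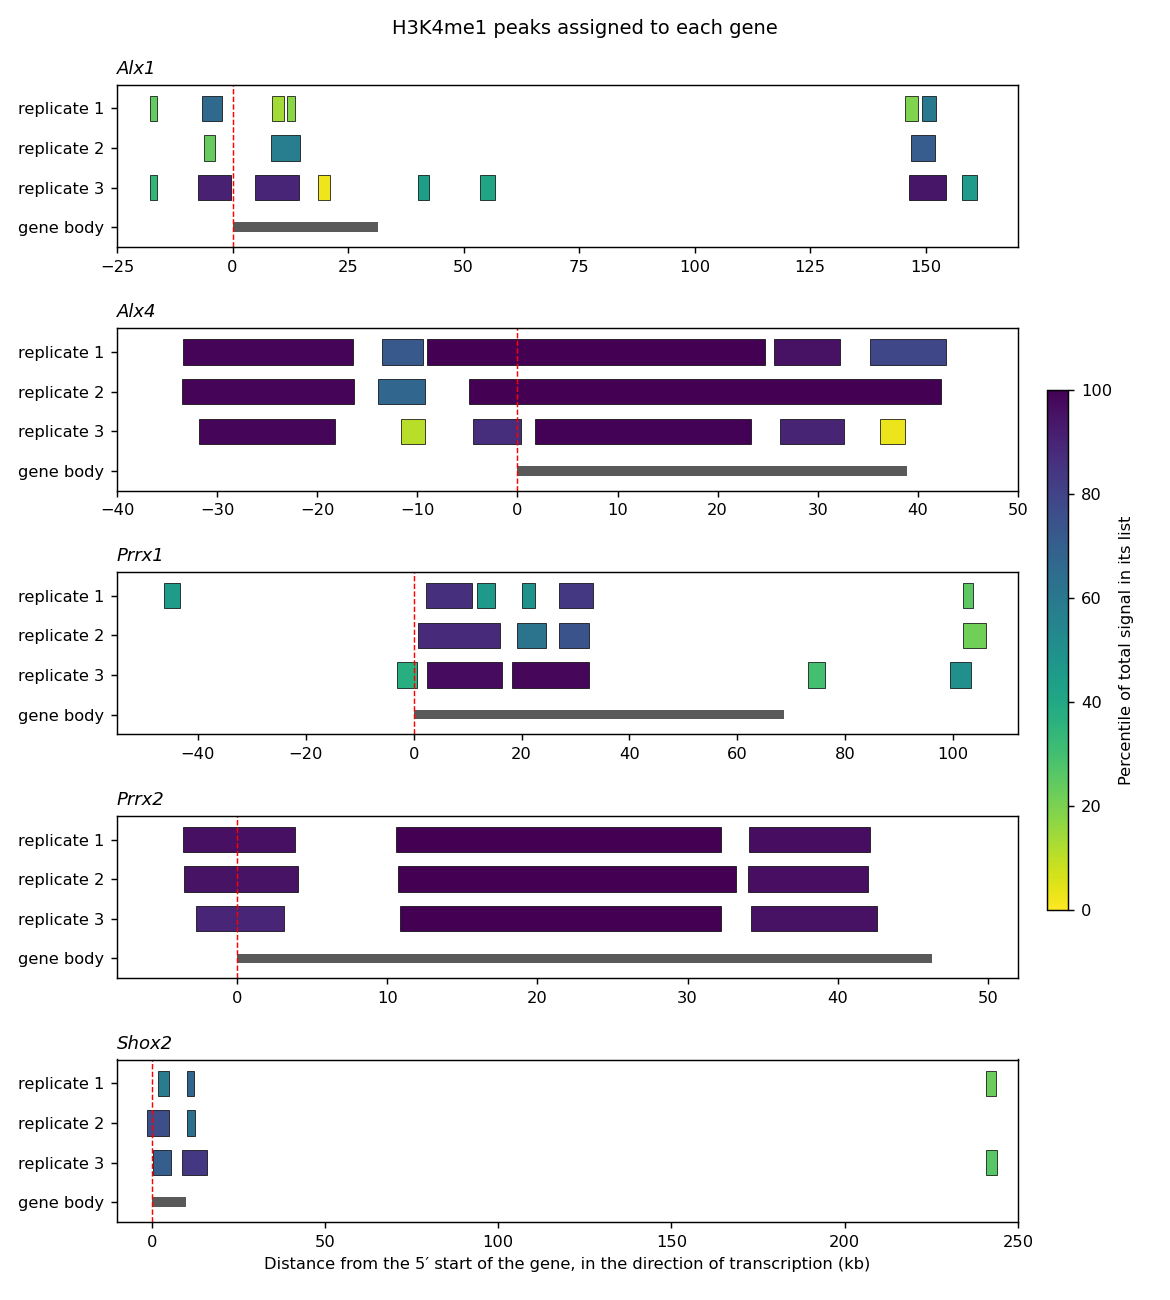
Position of every assigned H3K4me1 peak along each gene, in kb from the 5′ start in the direction of transcription, with 1 row for each replicate, the gene body as a grey bar, the 5′ start as a dashed line and colour for the percentile of total signal. Prrx2 has 3 peaks at matching positions in all replicates, Alx4 is covered almost from end to end, and Alx1 has 4 weak to moderate peaks in replicate 3 with no counterpart in the other rows. The replicate 1 peak upstream of Prrx1 overlapped peaks of replicates 2 and 3 that were nearest to another gene and are not drawn.

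Prrx1 (ENSMUSG00000026586.16) is the longest of the genes, 68.6 kb on the minus strand at chr1:163245119-163313710, with the starts of Gorab 90.0 kb upstream and Mroh9 228 kb downstream. Its signal lay in 2 regions in the first part of the gene, mostly over introns. The region nearer the start held peaks at 2.298 to 10.8 kb and 11.7 to 15.1 kb in replicate 1, and 1 peak each at 0.81 to 15.999 kb in replicate 2 and 2.44 to 16.3 kb in replicate 3. Its strongest peak lay at percentiles of 86.0, 88.2 and 97.1. The second region, from 18.3 to 33.2 kb, held 2 peaks in replicates 1 and 2 and 1 peak of 14.2 kb in replicate 3, with its strongest at 83.7, 74.5 and 98.2, and in replicate 3 its highest pileup fell in an exon. Both regions thus ranked higher in replicate 3 than in the other two.

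Around Prrx1, a region between 99.5 and 106 kb past the start recurred in all replicates at percentiles of 25.1, 21.6 and 50.03. Upstream, 1 distal peak from −46.3 to −43.4 kb was assigned in replicate 1 alone, at percentile 44.98. It belongs to a region with peaks in all replicates, but the others there were nearer to another gene's start. A peak over the 5′ start, from −3.18 to 0.55 kb at percentile 37.0, and one past the 3′ end, from 73.1 to 76.2 kb at 29.9, were called in replicate 3 alone. Peaks covered 26.1, 33.3 and 41.0% of the body with its flanks, a mean of 33.5 ± 7.46% (SD, n = 3), which 552 of 21755 genes, Prrx1 included, equalled or passed.

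Alx1 (ENSMUSG00000036602.14), 31.5 kb on the minus strand at chr10:102998707-103030215, had 6, 3 and 8 assigned peaks in replicates 1, 2 and 3, more than Prrx2 in replicates 1 and 3 but none of them wide. Only 3 of its 8 regions recurred in all replicates. An upstream region reached from −6.63 to −2.35 kb, −6.25 to −3.76 kb and −7.44 to −0.43 kb, at percentiles of 66.3, 23.7 and 90.9. An intronic region between 4.98 and 14.6 kb lay at 17.8, 58.0 and 89.7 by its strongest peak. A downstream region between 146 and 155 kb, past the 3′ end on the side of Rassf9, lay at 59.8, 70.7 and 94.2. The percentiles of each of the 3 regions therefore spread over more than 30 points between pads.

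A short Alx1 peak at −17.8 to −16.4 kb in replicate 1, within an intron of the neighbour Lrriq1, was called at percentile 24.1 there and 34.1 in replicate 3, and not in replicate 2. The remaining 4 regions, at 18.6, 40.1, 53.6 and 158 kb, were in replicate 3 alone, at percentiles of 2.53, 44.6, 40.6 and 45.6. Peaks covered 16.9, 17.99 and 40.1% of the Alx1 body with its flanks, a mean of 25.0 ± 13.1% (SD, n = 3). Assigned peaks totalled 15.9, 14.1 and 37.6 kb, so replicate 3 lay far above the other two.

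Shox2 (ENSMUSG00000027833.16), the shortest gene at 10.045 kb, lies on the minus strand at chr3:66971727-66981771. A start of Rsrc1 lies 3.90 kb upstream of its 5′ start, and that of Veph1 682 kb downstream of its most downstream annotated start. It had 3, 2 and 3 assigned peaks. A region at the 3′ end, between 8.68 and 16.1 kb, ranked at 67.7, 63.5 and 83.7, and a region over the first part of the gene, between −1.39 and 5.56 kb, at 58.9, 76.4 and 70.4. These are moderate ranks in each replicate. In replicates 1 and 2 the 3′ peak lay wholly past the end of the gene. There it was 2.04 and 2.26 kb long with its highest pileup at the same base, the single capital in the Shox2 sequence. In replicate 3 it was 7.38 kb long and ran over the end of the gene.

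Peaks covered 25.9, 43.7 and 57.5% of the Shox2 body with its flanks, a mean of 42.3 ± 15.8% (SD, n = 3). A single weak distal peak, at 241 to 244 kb downstream, was called in replicates 1 and 3 at percentiles of 22.5 and 26.4. The stretch taken around the Shox2 starts is 305 kb long, because it was cut at 300 kb on the Veph1 side. It holds 1 start of another gene among those of Shox2. Of this stretch 2.67, 2.87 and 5.15% was covered, the lowest share of the 5 genes, against 79.4, 82.1 and 76.7% of the 41.5 kb around Prrx2. Upstream of the 5′ start, on the Rsrc1 side, the next peak that did not cover the start lay 1485805, 1509629 and 971468 bp away in replicates 1, 2 and 3.

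**Figure D3:**
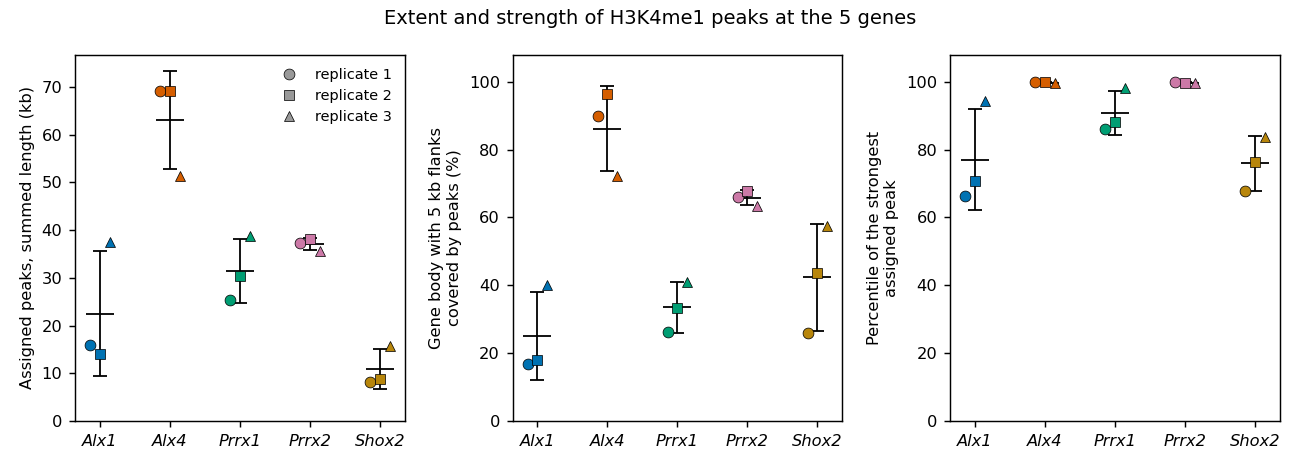
Summed length of assigned peaks (kb), share of the gene body with 5 kb flanks under a peak (%) and percentile of the strongest assigned peak for each gene, with 1 symbol for each replicate and bars for the mean ± SD (n = 3). Alx4 and Prrx2 lie near the 100th percentile in every replicate, and for Alx1, Prrx1 and Shox2 replicate 3 is the highest point in each panel.

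By the mean percentile of the strongest assigned peak the order was Prrx2 (99.7 ± 0.0821), Alx4 (99.7 ± 0.199), Prrx1 (90.8 ± 6.48), Alx1 (77.1 ± 15.01) and Shox2 (75.9 ± 8.03; SD, n = 3 each). The smallest p that a comparison of 3 values with 3 allows is 0.1, so no neighbouring pair could pass 0.05. The groups did not overlap for Alx4 and Prrx1, whose means differed by 8.93 percentile points (two-sided exact permutation test, p = 0.1, 0.4 after Benjamini-Hochberg adjustment over 4 pairs). Prrx1 and Alx1 differed by 13.7 points with overlapping values, although Prrx1 was the higher in each of the 3 replicates (exact permutation p = 0.3, adjusted 0.6). Alx1 and Shox2 differed by 1.15 points (exact permutation p = 0.9, adjusted 1) and Prrx2 and Alx4 by 0.0122 (exact permutation p = 1, adjusted 1), both well within the spread between replicates, and both orders reversed without replicate 3.

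At the start sites the genes differed. The 5′ start was under a peak in all 3 replicates for Alx4 and Prrx2, 2 of the 5 genes, compared with 1.8% of all genes and 11.6% of the genes with a peak at the gene in all replicates. Prrx2 has a second annotated start, at 30845059, which lay in the gap between its first and second peak. That gap was 6697, 6620 and 7722 bp wide in replicates 1, 2 and 3, and the second peak began 486, 613 and 779 bp after the start. The RefSeq start of Prrx2 lies a little further downstream, still before the second peak in every replicate, and the 250 bases upstream of it had a GC content of 70.0% with 21 CG dinucleotides and had a peak in 0 replicates.

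The 5′ start of Alx1 also lay between peaks in every replicate, in gaps of 10904, 12160 and 5409 bp. The 5′ start of Prrx1 was under a peak in replicate 3 only, and the nearest peak began 2298 and 810 bp downstream of it in replicates 1 and 2. The 5′ start of Shox2 was under a peak in replicate 2 only, and the nearest peak lay 1769 and 407 bp downstream in replicates 1 and 3. For scale, of the genes with a peak at the gene in replicate 1, 2 or 3, 21.3, 28.7 and 12.4% had their 5′ start under it.

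Joined across replicates, the assigned peaks gave 23 regions. Every replicate had a peak in 15 of them (65.2%), compared with 46.3% of the 19251 regions of the whole series. All 3 regions of Alx4 and of Prrx2 recurred, and so did 4 of 6 for Prrx1 (1 of them, upstream, with an assigned peak in replicate 1 only), 2 of 3 for Shox2 and 3 of 8 for Alx1. The 2 regions with a peak in 2 replicates were both missing from replicate 2. The 6 regions with a peak in 1 replicate were all from replicate 3, 4 at Alx1 and 2 at Prrx1, whereas over the whole series replicates 1, 2 and 3 gave 45.5, 11.7 and 42.8% of such regions. In 10 of the 15 recurring regions the closest 2 places of highest pileup were within 50 bp (66.7%, against 57.1% of recurring regions overall). All 3 places were within 500 bp in 3 of the 15 (20%, against 49.3% overall). Of the 15, all but the weaker upstream region of Alx4 (4.70 kb) were longer than the median recurring region of the whole series. The limits of 50 and 500 bp were the same for regions of any length. The part of region length in these shares, and in the 65.2% of regions that recurred, was not tested.

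Base composition moved with the difference between replicate 3 and the other pads. A recurring region's share of all signal in its list was compared between replicates 3 and 2. All recurring regions were sorted into 10 groups by GC content. The median log2 ratio fell from 0.92 in the group with a median GC content of 41.4% to −0.90 in the group with 54.5%. For replicates 1 and 2 the same medians were −0.05 and −0.24. The 3 Alx1 regions, with 33.8 to 39.1% GC, had log2 ratios of 1.34 to 2.20, and the 4 Prrx1 regions, with 39.4 to 43.9% GC, had 0.63 to 1.14. The Alx4 and Prrx2 regions were the reverse, with 49.1 to 51.2% GC and −1.18 to −0.40 at Alx4, and 51.5 to 52.5% GC and −0.86 to −0.38 at Prrx2. Of the 4 Prrx1 regions, the upstream region, with a ratio of 0.85, had peaks in replicates 2 and 3 that were nearest to another gene.

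Shox2 held both kinds, with a log2 ratio of 0.79 for the 3′ region of 40.2% GC and −0.28 for the region at the start of 49.8%. After the median of its GC group was subtracted, the difference was −0.29 to 0.30 over the Prrx1 regions, −0.27 to 0.21 over those of Prrx2 and −0.13 to 0.07 over those of Shox2. It was −1.04 for the weaker upstream region of Alx4. For Alx1 it was 0.42 to 1.29. All 3 Alx1 regions have a lower GC content than the 41.4% median of the group they were set against. The Prrx1 regions of 39.4 and 40.3% GC and the Shox2 region of 40.2% were set against the same group and also lie below its median. For all of these regions the subtraction removes the trend only in part. Regions called in replicate 3 alone had a median GC content of 41.5% over the whole series, against 47.3% for regions in all 3 replicates. The part of GC content in the high ranks of Alx1 and Prrx1 in replicate 3 was not tested.

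**Figure D4:**
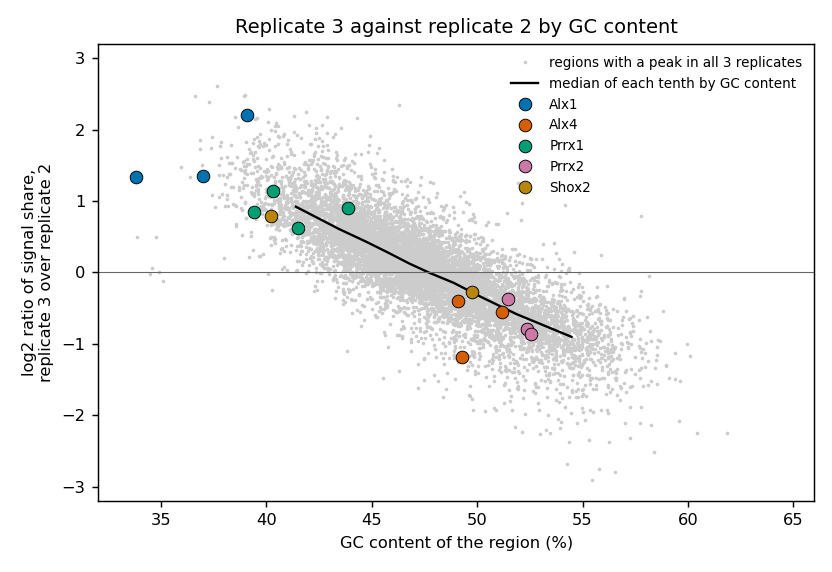
Ratio of signal share, replicate 3 over replicate 2 (log2), against GC content (%) for regions with a peak in all 3 replicates, with grey points for the whole series, a black line for the median of each of 10 groups by GC content and coloured points for the 15 regions of the 5 genes. Alx1 and Prrx1 regions lie at low GC content above 0, Alx4 and Prrx2 regions at higher GC content below 0, and 1 grey region falls outside the axes. The upstream Prrx1 region is included, although its peaks in replicates 2 and 3 were nearest to another gene.

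Other paired-like homeobox genes were set beside the 5. Of 25 such genes, 6, 7 and 4 had a peak at the gene in replicates 1, 2 and 3, and 4 had one in all 3 (16%, near the 15.5% of all genes), Gsc and Otx1 among them. None of the 25 had a peak of 10 kb or longer at the gene in all replicates, and 18 had no peak at the gene in any. The strongest peak of Gsc, a homeobox gene of the head and jaw mesenchyme, lay at percentiles of 94.4, 90.9 and 91.2, and peaks covered 52.3, 83.1 and 81.9% of its body with flanks. In every list Gsc ranked below Alx4 and Prrx2. It ranked above Prrx1 in replicates 1 and 2 and below it in replicate 3.

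The strongest peak of Otx1, a forebrain gene, reached 36.2, 40.8 and 18.5. Pitx1 had a peak at the gene in replicate 2 only, with distal peaks in all replicates and its strongest assigned peak at 91.8, 88.2 and 89.6. Otx2, which is required for the anterior head and brain, had no assigned peak in any replicate.

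The protein-coding gene most like each of the 5 in covered length over the 3 replicates was found by the Euclidean distance of log2(kb + 1). For Prrx2 it was Fndc3b (36.6, 38.2 and 36.8 kb, distance 0.0520) and for Alx4 it was Nfix (66.4, 66.8 and 52.6 kb, distance 0.0817). Alx1 was nearest to Tbl1xr1 (17.2, 14.0 and 40.1 kb, distance 0.144), Prrx1 to Epb41l3 (28.2, 32.8 and 37.7 kb, distance 0.191) and Shox2 to Tle1 (7.27, 9.06 and 17.2 kb, distance 0.191). Within a distance of 0.5 there were 191 genes for Prrx2, 65 for Alx4, 63 for Prrx1, 57 for Shox2 and 18 for Alx1. The Alx1 profile, low in replicates 1 and 2 and high in replicate 3, thus had the fewest counterparts.

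The motifs TAATTA, a core bound by homeodomain proteins, the inverted repeat of TAAT and ATTA with 3 bases between, bound by pairs of them, and CAGATG, an E-box bound by basic helix-loop-helix factors, were searched on both strands. The window reached 150 bases to either side of the midpoint of the 2 closest places of highest pileup, which could be set in 14 of the 15 recurring regions. TAATTA and the inverted repeat were in 0 of the 14 windows and in 4.42 and 0.302% of 8286 windows over the whole series. CAGATG was in 2 of the 14, 1 match in the Alx1 upstream region and 2 in the Prrx2 start region, and in 27.4% of all windows. The Alx1 match, on the reverse strand as catctg, can be read near the 3′ end of the printed Alx1 sequence. With 14 windows these shares are coarse, and a window without a match says only that these letters are not in it.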

How the data were processed

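H3K4me1 CUT&Tag peak lists of 3 whisker pads were used. Per the labels and the methods of the study, the authors aligned to mm10 with Bowtie2 (2.3) and SAMtools (0.1.19) and called peaks per replicate with SEACR (1.3), stringent and without IgG, keeping the top 1% of signal blocks. The number of peaks therefore follows the number of blocks. The 2 deposited signal columns, total and maximum pileup signal, held whole numbers in every peak and were not scaled to depth, so signals were compared as percentiles and shares within a list. How duplicates were treated is not given in the sources used here. A common target depth is stated by the study, but peak lists carry no reads, and the yield of single libraries could not be computed from them. Summed over its peaks, the signal was 822360552, 985881531 and 744342185 in replicates 1, 2 and 3. Median peak length was 2981, 3682 and 3352 bp. No peak ran past a GRCm38 chromosome end (0 peaks). Coordinates are 1-based.

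GENCODE vM21 gave 21755 protein-coding genes and 54050 start sites, and distance was taken from the nearest edge of a peak. Peaks of the 3 lists overlapping by at least 1 bp were merged into regions. Scripts (Python 3.11.15, pandas 2.3.3, SciPy 1.17.1, pysam 0.24.0) were tested on simulated intervals. The 5 genes, the gene lists and the 10 kb limit were chosen with earlier results of these data known. Named genes were the 5, the genes with the nearest starts on each side, other paired-like genes with a peak in all replicates plus Otx2 and Pitx1, and the most similar gene to each. Values of 2 genes that this rule names are not reported here. Sequence and motif windows were centred on the midpoint of the 2 closest places of highest pileup, not on the mean of all 3 as first planned, because the 3 lay far apart in wide regions. RefSeq promoters were found for 3 of the 5 genes (Prrx1, Prrx2 and Shox2) and are not printed. Alternatives covered peak strength, joining, flanks, distance limits, competing start sites, signal measures and left-out replicates.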

Additional observations from a re-analysis of the deposited data

How the results depend on the processing

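Of 145 alternative values for 15 results, 129 were classed as the same, 10 as moved further and 6 as changed in sign. The 129 include values that could not change. These are the differences in the replicate block, where pairing leaves a difference of means as it is, and counts of peaks at the gene under other distance limits or start sites. To be the same, levels had to move by less than the SD between replicates, and counts by no more than 1.5 times. Differences between neighbouring genes only had to keep their sign, so some of these changed greatly in size. Alx4 minus Prrx1 rose from 8.93 to 25.5 by total signal divided by length, and Prrx1 minus Alx1 fell from 13.7 to 1.36 by maximum signal. With the stronger 50% of each list, assigned peaks fell from a mean of 21 to 14 and recurring regions from 15 to 10. The count of genes with a peak at the gene in all replicates was 5 under every alternative run, but most runs could not lower it. Distance limits and start sites do not enter this count, and wider flanks, joined peaks or a left-out replicate can only keep or raise it. Only the stronger 50% of each list, the strongest 10000 peaks and flanks of 0 kb could have lowered it. The count with a peak of 10 kb or longer was 2 under most, and 3 when peaks less than 1 kb apart were joined, at a limit of 5 kb or without replicate 1. Median percentile was 60.2 in place of 74.8 by total signal per base of peak. Covered length was 146.1 kb in the stronger 50% of each list, 150.2 kb with start sites of all annotated genes and 184.9 kb with only the 5′ start of each protein-coding gene, in place of 165 kb. In the order of the strongest peaks, Prrx2 minus Alx4 was −0.18 by maximum signal and −0.053 without replicate 3. Per length the strongest peak of Prrx1 was at 68.6, below those of Alx1 and Shox2, and Prrx1 minus Alx1 was −3.81. The strongest peaks of Alx4 and Prrx2 were at 97.5 and 97.4 by maximum signal and at 94.1 and 96.0 per length, and that of Prrx1 at 80.8 by maximum signal. Alx1 minus Shox2 was −4.12 per length, −4.18 with only peaks at the gene and −3.54 without replicate 3. The cause of these changes was not tested.

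Leaving out 1 replicate at a time gave 5 to 5 genes with a peak, a count that it cannot lower. It also gave 2 to 3 with a peak of 10 kb or longer, 19 to 24 assigned peaks on average, 14 to 19 recurring regions, a median percentile of 70.4 to 79.1 and 158 to 169.7 kb covered. The differences ranged over −0.053 to 0.0685 for Prrx2 minus Alx4, 6.49 to 12.7 for Alx4 minus Prrx1, 10.7 to 18.6 for Prrx1 minus Alx1 and −3.54 to 4.57 for Alx1 minus Shox2, and with 2 replicates the smallest exact permutation p is 0.333. With motif windows at the mean of all 3 places of highest pileup, 3 windows remained and CAGATG was in 1 of them, against 28.2% of 4397 windows overall. With the replicate block, an alternative chosen after seeing the data in which the values of 2 genes were paired by peak list, the differences stayed 0.0122, 8.93, 13.7 and 1.15 in the same order, with exact permutation p = 1, 0.25, 0.25 and 1, where 0.25 is the smallest that 3 pairs can give. No paired analysis was possible for H3K4me1 against IgG because the IgG samples, which share replicate numbers with the others, were not analysed here. Only 3 replicates and no control background limit every value, peaks under the top 1% of blocks were not seen, and the nearest start need not be the gene a region acts on.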
